A study of Homo sapiens with 4 samples.

Results

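The 20q11 block is a set of 42 genes that lie in 1 stretch of the long arm of human chromosome 20, from TM9SF4 (start 32109506) to DLGAP4 (end 36528637, GRCh38), and that read higher as a group in an edited NK-92 line than in its wild type. Its members were chosen by their line ratios, the ΔOGT-ISS level over the WT level in the same 4 libraries, together with their position, and all 42 were matched by symbol and Ensembl identifier among the 61860 genes of the count table. Those ratios are therefore given as a description, without a test. NK-92 is a human natural killer cell line that needs interleukin 2 (IL-2). In the edited line, ΔOGT-ISS, an intronic splicing silencer (ISS) had been deleted, by use of CRISPR-Cas9, from OGT, the gene of the enzyme that adds O-GlcNAc to proteins, and WT carries no such deletion. Both lines were cultured with human IL-2. Total RNA, depleted of ribosomal RNA, was sequenced from 1 ΔOGT-ISS and 1 WT library with IL-2 given 24 h before extraction, and from 1 ΔOGT-ISS and 1 WT library with IL-2 given 48 h before it. Both lines thus received IL-2, although the sample titles name it for the 24 h libraries alone. Only 1 edited line was compared, and whether it is a single clone, or whether the libraries came from separate cultures, is not given in the sources used here. P-values then measure only the spread between these libraries, none of which repeats the line and time of another. The error of the fit is therefore the part of the line difference that changes with IL-2 time, moderated over genes. In such bulk RNA, a change in the share of some cells and a change in RNA per cell cannot be told apart.

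Band 20q11 holds housekeeping genes of transcription, splicing, translation and membrane traffic, and gain of this part of the chromosome is a common change in cultured human pluripotent stem cells. A gain of DNA copies usually raises the RNA of most genes on the gained segment together, while a change in the regulation of 1 gene does not follow chromosome order. DNA copy number was not measured in this series, so RNA dosage can be described here but its origin cannot be told apart from other differences between the lines.

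The libraries held 28576566 and 11305599 counts in ΔOGT-ISS (24 h and 48 h), against 24809269 and 10889986 in WT. Summed over 7 natural killer markers, the level was 2553 to 2795 CPM in ΔOGT-ISS and 2684 to 4308 CPM in WT. NCAM1 (263 to 474 CPM) and KLRD1 (72.9 to 99.1 CPM) read alike in the lines, while GZMB, a granzyme, had 327 and 849.9 CPM in ΔOGT-ISS (24 h and 48 h), against 1124 and 852 CPM in WT, and NKG7, a cytotoxic granule protein, had 844 and 656 CPM in ΔOGT-ISS (24 h and 48 h), against 1413 and 814 CPM in WT. B cell markers summed to 0.613 to 0.690 CPM in ΔOGT-ISS and to at most 1.79 CPM in WT. T cell markers summed to 211 to 342 CPM in ΔOGT-ISS and 246 to 333 CPM in WT. Most of it was CD3E, which had 316 and 187 CPM in ΔOGT-ISS (24 h and 48 h), against 312 and 222 CPM in WT. TRAC had 19.9 to 24.0 CPM, while CD3D, CD3G and CD5 each had at most 1.69 CPM in any library. Myeloid markers summed to 42.6 to 588 CPM in ΔOGT-ISS and 296 to 789 CPM in WT, almost all of it S100A9, which had 38.9 and 584 CPM in ΔOGT-ISS (24 h and 48 h), against 290.0 and 779 CPM in WT, while CD14 and LYZ were each under 0.3 CPM in every library. The part of these markers in the results was not tested. OGT itself read 384 and 399 CPM in ΔOGT-ISS (24 h and 48 h), against 449 and 446 CPM in WT. Counts per gene do not show how OGT was spliced, so these values do not check the deletion.

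Across the 42 members, the log2 ratio of ΔOGT-ISS to WT had a median of 0.79 (24 h) and 0.99 (48 h), which is 1.73-fold and 1.99-fold. These are ratios of library-scaled counts (CPM) after TMM normalization, with a prior count of 2. The 12078 tested protein-coding genes had medians of 0.00 and 0.01. Ratios were above 0 at both times in 40 of the 42 members and above 0.5 at both times in 32. Among the 40 members that passed the filter on low counts those numbers were 38 and 31, where 29.6% and 4.83% of the 17492 tested genes reached them. The edgeR test over both times called 5 members higher in ΔOGT-ISS (NOL4L, GGT7, GSS, UQCC1 and CPNE1), where 0.149% of tested genes were called higher. These counts use the contrast that chose the members, so nothing is read from them.

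**Figure D1:**
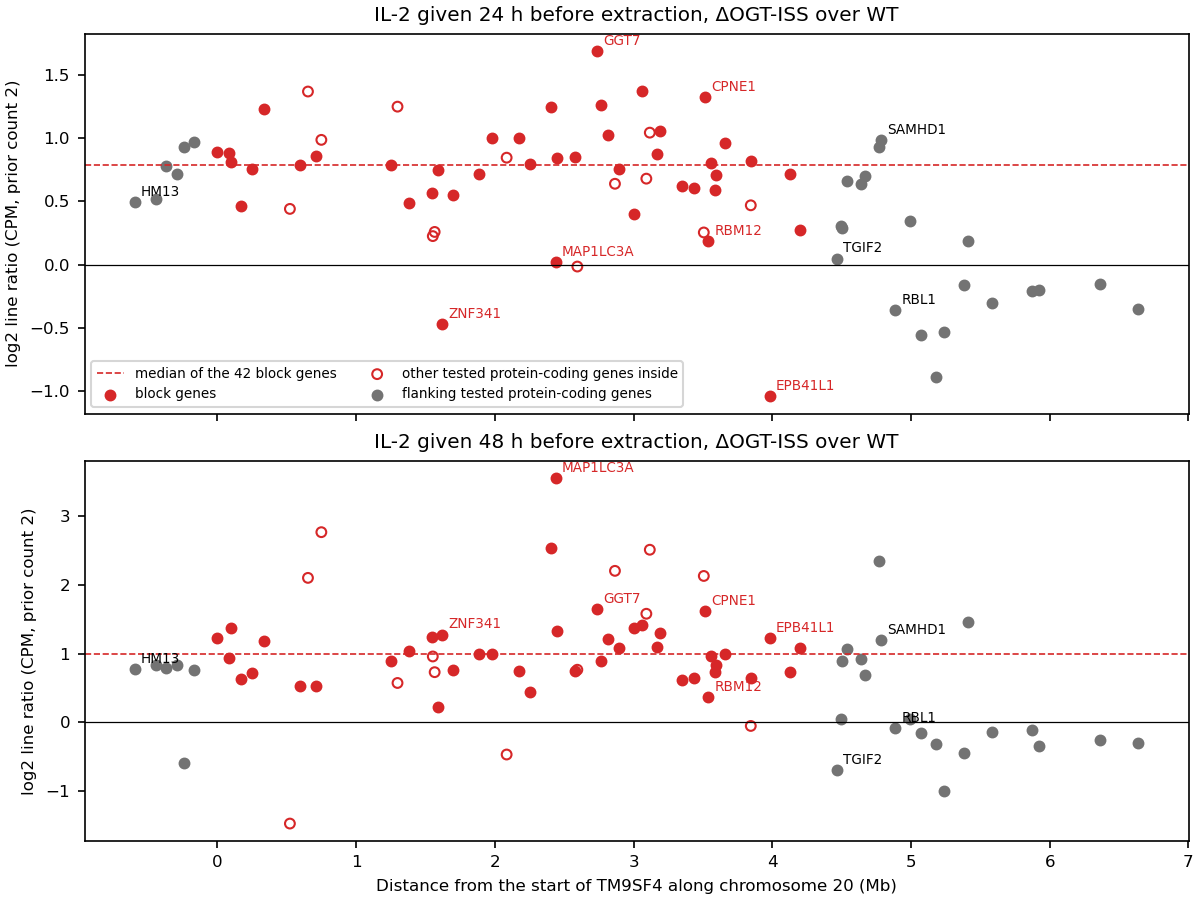
Log2 ratio of ΔOGT-ISS to WT (y axis, 1 library per line) against distance from the start of TM9SF4 in Mb (x axis), at 24 h (top) and 48 h (bottom). Filled red points are the 42 block genes, open red points other tested protein-coding genes between them, grey points flanking genes, and the dashed line the block median (0.79 at 24 h, 0.99 at 48 h). The raised values run on past both ends of the block as far as HM13 and SAMHD1, with TTLL9 and TGIF2 below 0 at 48 h, and stop before RBL1.

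The raised values did not stop at the members. On the centromeric side, 6 tested protein-coding genes lie between the centromere and TM9SF4, and their median ratio was 0.75 (24 h) and 0.78 (48 h). They include BCL2L1, which encodes the anti-apoptotic protein BCL-xL, with 108 and 59.8 CPM in ΔOGT-ISS (24 h and 48 h), against 75.4 and 33.6 CPM in WT, log2 ratios of 0.52 (24 h) and 0.83 (48 h). TPX2, a spindle assembly factor, had 685 and 760.0 CPM in ΔOGT-ISS (24 h and 48 h), against 399 and 438 CPM in WT, log2 ratios of 0.78 (24 h) and 0.80 (48 h). Both genes were higher in each ΔOGT-ISS library than in the WT library of the same time, and for TPX2 the ΔOGT-ISS and WT values did not overlap. HM13, a signal peptide peptidase, stood at 0.49 (24 h) and 0.77 (48 h), and PDRG1, the nearest neighbour of TM9SF4, at 0.97 (24 h) and 0.75 (48 h). TTLL9 was the exception, at 0.93 (24 h) and -0.60 (48 h), with 32 and 6 counts in ΔOGT-ISS (24 h and 48 h), against 13 and 9 counts in WT.

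On the telomeric side the nearest neighbours of DLGAP4 were the least raised. TGIF2, a transcriptional repressor, stood at 0.05 (24 h) and -0.70 (48 h), and RAB5IF at 0.30 (24 h) and 0.05 (48 h). Raised values then resumed in SLA2 (0.29 and 0.89 at 24 h and 48 h), NDRG3 (0.66 and 1.06), DSN1 (0.63 and 0.93) and SAMHD1. SAMHD1, a dNTP-degrading enzyme that restricts viral replication, had 561 and 509 CPM in ΔOGT-ISS (24 h and 48 h), against 283 and 221 CPM in WT, log2 ratios of 0.99 (24 h) and 1.20 (48 h). Its next tested protein-coding neighbour, RBL1, a relative of the retinoblastoma protein, had 87.3 and 119 CPM in ΔOGT-ISS (24 h and 48 h), against 112 and 127 CPM in WT, log2 ratios of -0.36 (24 h) and -0.09 (48 h). The border thus lay between SAMHD1 (end 36951901) and RBL1 (start 36996349), a place picked after the values were seen. Over the next 12 tested protein-coding genes, RBL1 included, the median was -0.26 (24 h) and -0.21 (48 h). The 164 such genes from RBL1 to the end of 20q had medians of -0.14 and 0.02, and the 105 genes of the short arm, 20p, had medians of 0.37 and 0.27. The short arm therefore also read above WT, by less than the block.

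Between the first and last member, 106 other annotated genes were counted, and 27 of them reached a mean of 1 CPM. Their median ratio was 0.64 (24 h) and 0.90 (48 h), and 24 and 22 of the 27 were above 0. DNMT3B, a de novo DNA methyltransferase, had 171 and 57.7 CPM in ΔOGT-ISS (24 h and 48 h), against 66.1 and 13.3 CPM in WT, log2 ratios of 1.37 (24 h) and 2.10 (48 h). E2F1, the transcription factor of entry into DNA replication, had 173 and 129.5 CPM in ΔOGT-ISS (24 h and 48 h), against 145 and 78.2 CPM in WT, log2 ratios of 0.26 (24 h) and 0.73 (48 h). The long non-coding RNA NORAD, which binds PUMILIO proteins, had 536 and 522 CPM in ΔOGT-ISS (24 h and 48 h), against 334 and 405 CPM in WT and log2 ratios of 0.68 (24 h) and 0.37 (48 h). Genes with under 30 counts in WT at 48 h scattered in both directions there. On the higher side were MYH7B (0.64 and 2.21 at 24 h and 48 h), EFCAB8 (0.99 and 2.77), MMP24 (1.04 and 2.51) and SPAG4 (0.25 and 2.13), and on the lower side were ASIP (0.85 and -0.47) and CNBD2 (0.47 and -0.06), all named after their values were seen. Genome-wide, protein-coding genes under 5 mean CPM had medians of -0.14 (24 h) and 0.31 (48 h), and the part of such low counts in these values was not tested.

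**Figure D2:**
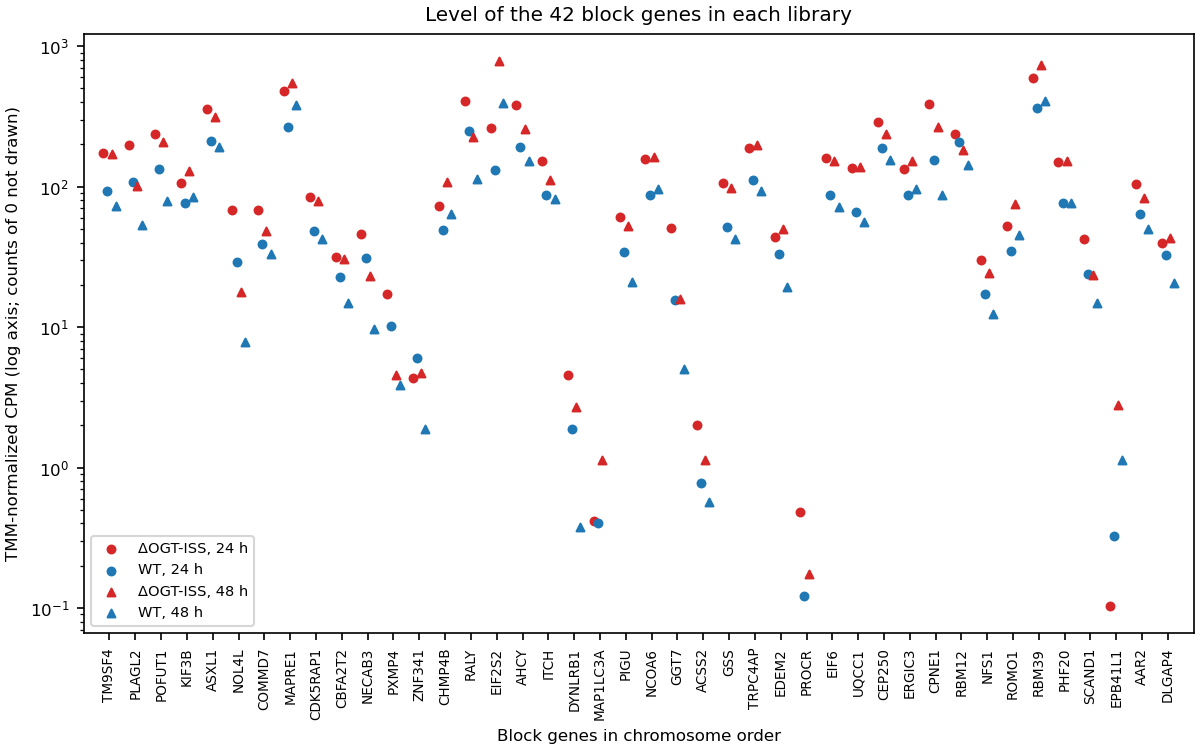
TMM-normalized CPM (log axis) of the 42 block genes in chromosome order, with 1 point per library: ΔOGT-ISS in red and WT in blue, circles for 24 h and triangles for 48 h. Red points lie above the blue points of the same shape for nearly all genes, over levels from under 1 CPM (PROCR) to 784 CPM (EIF2S2).

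The members were not raised by an identical amount, and their spread was close to that of other genes around their own median, a comparison without a test. The members were chosen by these same ratios, which can narrow their spread. Nothing about all genes of the interval is therefore read from it. For the 35 members with at least 50 counts in every library, the SD of the log2 ratio was 0.29 (24 h) and 0.32 (48 h). The 8626 protein-coding genes that met the same minimum had SDs of 0.39 and 0.47. The median absolute deviation, which is less moved by extremes, was 0.16 and 0.25 for the members, against 0.17 and 0.24 for the other set. Counting error alone would have given the 35 members an SD of 0.05 (24 h) and 0.10 (48 h) (root mean square), which is below the spread observed. With all 42 members the SD was 0.47 and 0.57, since the sparse members scatter widely. The 14 tested protein-coding non-members inside the interval, also without a minimum of 50 counts, had SDs of 0.41 (24 h) and 1.35 (48 h).

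The ratios were set against fixed folds of 1.5, the ratio of 3 copies to 2, and of 2, the ratio of 4 to 2. At 24 h the exact 95% interval for counting error lay above 1.5 for 27 of the 42 members, held 1.5 for 9 and lay below it for 6. It lay below 2 for 30 members, held 2 for 9 and lay above it for 3. At 48 h it lay above 1.5 for 27, held it for 12 and lay below it for 3, while 16 lay below 2, 16 held 2 and 10 lay above it. No single fold was therefore held by the intervals of all members at either time. The ratio was lower at 24 h than at 48 h in 29 of the 42 members. Among the 35 well-counted ones it was lower in 24, with a median difference of -0.13 log2 units. Across those 35, the ratios at 24 h and 48 h, which share no library, had a Spearman rho of 0.39, beside 0.33 over the 8626 protein-coding genes. Over all 42 members, the sparse ones included, rho was 0.26. The members were chosen by these ratios, so nothing is read from their agreement. Genes are not independent replicates, and these are descriptions.

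**Figure D3:**
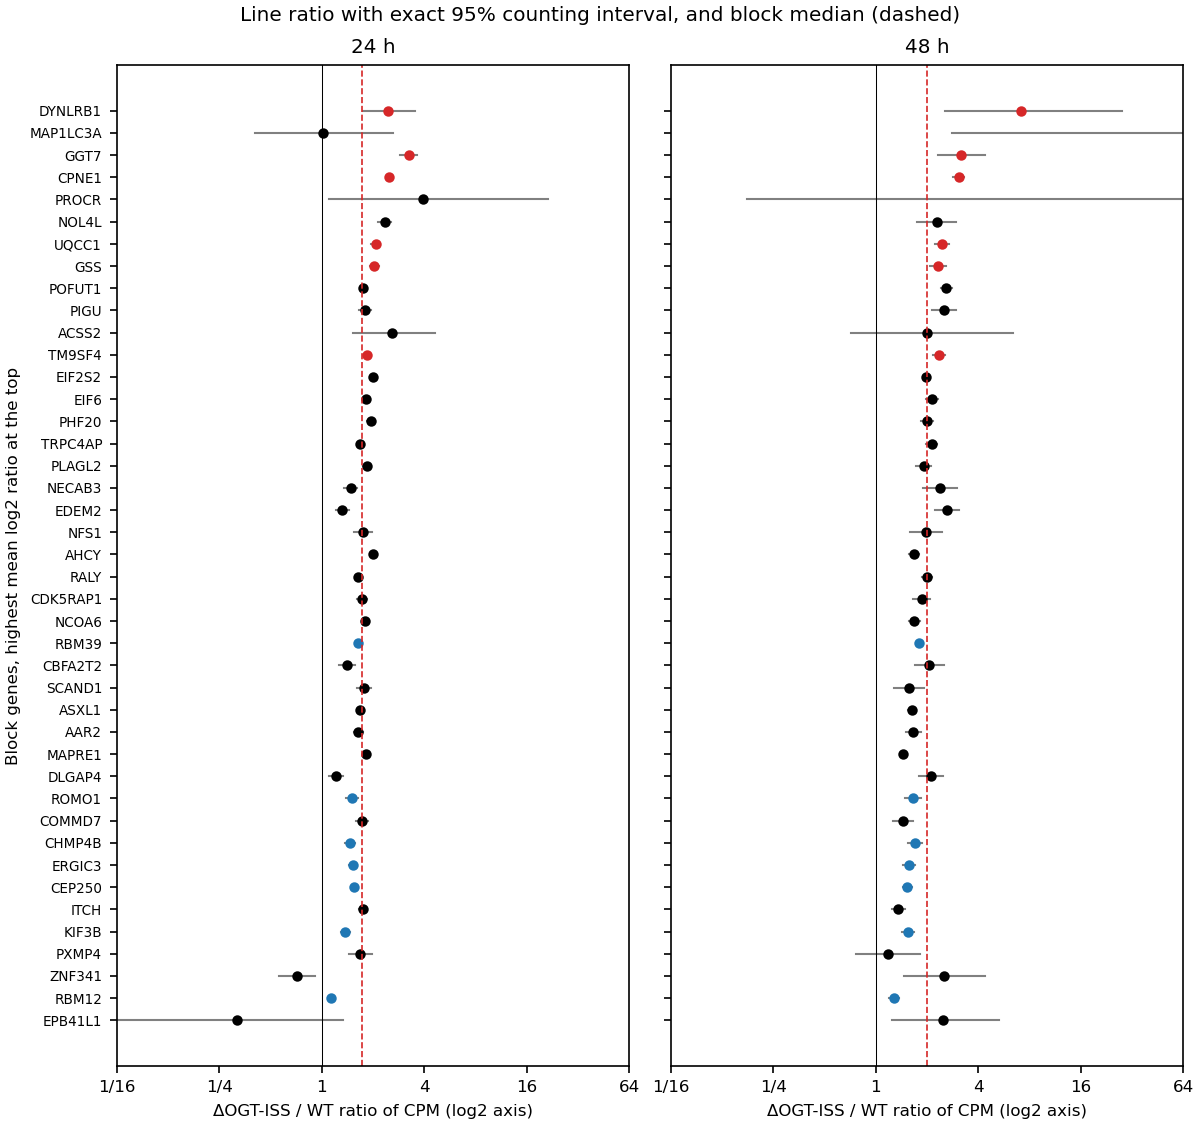
Ratio of ΔOGT-ISS to WT CPM (log2 axis) with its exact 95% counting interval for each block gene, at 24 h (left) and 48 h (right), with the genes ordered by mean ratio. The dashed line is the block median (1.73 and 1.99). Red points are the 6 genes whose intervals lie above it at both times, blue the 7 that lie below it at both, and black the rest. Ratios without a finite value (0 counts in WT) show their interval only.

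The members were described by the role of their proteins. Among the 8 genes of chromatin and transcription, median log2 ratios were 0.84 (24 h) and 0.97 (48 h). ASXL1, the scaffold of the BAP1 histone deubiquitinase complex, had 356 and 313 CPM in ΔOGT-ISS (24 h and 48 h), against 211 and 191 CPM in WT, log2 ratios of 0.75 (24 h) and 0.71 (48 h). PHF20, a subunit of the NSL histone acetyltransferase complex, had 149.7 and 152 CPM in ΔOGT-ISS (24 h and 48 h), against 76.9 and 76.2 CPM in WT, log2 ratios of 0.96 (24 h) and 1.00 (48 h). For both genes each ΔOGT-ISS library exceeded both WT libraries. NCOA6, a coactivator of nuclear receptors, stood at 0.85 (24 h) and 0.75 (48 h), the zinc finger factor PLAGL2 at 0.88 (24 h) and 0.94 (48 h), the corepressor CBFA2T2 at 0.49 (24 h) and 1.04 (48 h), and the SCAN-domain protein gene SCAND1 at 0.82 (24 h) and 0.65 (48 h). NOL4L was the highest of the group, at 1.23 (24 h) and 1.18 (48 h), with 68.4 and 17.9 CPM in ΔOGT-ISS (24 h and 48 h), against 29.2 and 7.85 CPM in WT.

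The 6 genes of RNA processing and translation had medians of 0.71 (24 h) and 0.91 (48 h). EIF2S2, the beta subunit of the initiation factor that brings the first tRNA to the ribosome, read 260.3 and 784 CPM in ΔOGT-ISS (24 h and 48 h), against 130.3 and 395 CPM in WT. Its level differed mostly with time, yet the line ratio was almost the same at both, 1.00 and 0.99. The splicing factor RBM39 had log2 ratios of 0.71 (24 h) and 0.84 (48 h), the hnRNP family member RALY 0.71 and 0.99, AAR2, an assembly factor of the spliceosome, 0.71 and 0.73, and EIF6, which keeps large ribosomal subunits from joining early, 0.87 and 1.09. RBM12, an RNA-binding protein gene, was the lowest well-counted member and is described with CPNE1.

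Metabolic enzymes formed the group with the highest median of means (1.10 over 4 genes, against 0.86 over all members). GGT7, of the gamma-glutamyltransferase family, had 50.9 and 15.95 CPM in ΔOGT-ISS (24 h and 48 h), against 15.7 and 5.01 CPM in WT, ratios of 3.24 (24 h, 95% counting interval 2.89 to 3.63) and 3.18 (48 h, 2.33 to 4.41). It was the most raised of the well-counted members, although ΔOGT-ISS at 48 h and WT at 24 h read nearly the same. GSS, which carries out the last step of glutathione synthesis, had 106 and 98.3 CPM in ΔOGT-ISS (24 h and 48 h), against 52.00 and 42.3 CPM in WT, ratios of 2.04 (24 h, 95% counting interval 1.91 to 2.18) and 2.32 (48 h, 2.08 to 2.60). AHCY, which hydrolyses S-adenosylhomocysteine after methyl transfer, had log2 ratios of 1.00 (24 h) and 0.75 (48 h). ACSS2, an acetyl-CoA synthetase, was sparse, with 58 and 13 counts in ΔOGT-ISS (24 h and 48 h), against 19 and 6 counts in WT.

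The 4 mitochondrial genes had medians of 0.79 (24 h) and 0.93 (48 h). UQCC1, an assembly factor of respiratory complex III, had 136 and 138 CPM in ΔOGT-ISS (24 h and 48 h), against 65.6 and 56.4 CPM in WT, ratios of 2.08 (24 h, 95% counting interval 1.96 to 2.20) and 2.45 (48 h, 2.23 to 2.70). Its ΔOGT-ISS values did not overlap those of WT. ROMO1, a small inner membrane protein linked to reactive oxygen species, was the member with the second highest WT level per length, with 146 and 207 FPKM in ΔOGT-ISS (24 h and 48 h), against 94.5 and 120.3 FPKM in WT. Its log2 ratios were 0.59 (24 h) and 0.72 (48 h). NFS1, the cysteine desulfurase of iron-sulfur cluster synthesis, stood at 0.80 (24 h) and 0.97 (48 h), and CDK5RAP1, a mitochondrial tRNA-modifying enzyme, at 0.78 (24 h) and 0.89 (48 h).

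The 5 genes of the secretory pathway had medians of 0.81 (24 h) and 1.32 (48 h), the widest gap between the times among the groups. TM9SF4, a transmembrane protein of endosomes and the Golgi, had 173 and 172 CPM in ΔOGT-ISS (24 h and 48 h), against 93.7 and 72.95 CPM in WT, ratios of 1.85 (24 h, 95% counting interval 1.76 to 1.95) and 2.35 (48 h, 2.16 to 2.56). POFUT1, which attaches O-fucose to Notch receptors, stood at 0.81 (24 h) and 1.38 (48 h), and PIGU, a subunit of the GPI transamidase, at 0.85 (24 h) and 1.32 (48 h). EDEM2, which trims mannose from misfolded glycoproteins, stood at 0.40 (24 h) and 1.38 (48 h), while ERGIC3, a cargo receptor between ER and Golgi, was alike at both times (0.61 and 0.65).

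Of the genes for the cytoskeleton, motors and the centrosome, 3 were well counted. MAPRE1, an end-binding protein of growing microtubules, had the highest WT level per length of all members, with 191 and 216 FPKM in ΔOGT-ISS (24 h and 48 h), against 103 and 144 FPKM in WT. Its log2 ratios were 0.86 (24 h) and 0.52 (48 h). The kinesin motor subunit KIF3B had 106 and 130.1 CPM in ΔOGT-ISS (24 h and 48 h), against 76.6 and 83.8 CPM in WT, ratios of 1.38 (24 h, 95% counting interval 1.30 to 1.46) and 1.55 (48 h, 1.43 to 1.69). The centrosome linker protein gene CEP250 had 289 and 237 CPM in ΔOGT-ISS (24 h and 48 h), against 187 and 154 CPM in WT, ratios of 1.54 (24 h, 95% counting interval 1.49 to 1.60) and 1.53 (48 h, 1.44 to 1.63). KIF3B and CEP250 were thus raised in both pairs of libraries, by less than the block median. Among genes of ubiquitination, endosomes and autophagy, the ligase gene ITCH stood at 0.80 (24 h) and 0.44 (48 h), TRPC4AP, a substrate receptor of a ubiquitin ligase, at 0.75 (24 h) and 1.09 (48 h), CHMP4B, the main filament subunit of the ESCRT membrane-cutting machinery, at 0.55 (24 h) and 0.76 (48 h), and the trafficking gene COMMD7 at 0.78 (24 h) and 0.53 (48 h). Of the other members, NECAB3, a calcium-binding protein gene, stood at 0.56 (24 h) and 1.24 (48 h), the scaffold gene DLGAP4 at 0.28 (24 h) and 1.08 (48 h) and the peroxisomal membrane protein gene PXMP4 at 0.75 (24 h) and 0.23 (48 h).

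Departure from the block median was called by counting intervals that missed it on the same side at both times. By that rule 6 members lay above it (TM9SF4, DYNLRB1, GGT7, GSS, UQCC1 and CPNE1) and 7 below it (KIF3B, CHMP4B, CEP250, ERGIC3, RBM12, ROMO1 and RBM39). These intervals cover counting error only, with no allowance for variation between cultures. The 14 members in the middle of the block by position, from RALY to PROCR, had medians of 0.93 (24 h) and 1.15 (48 h). The first 14 had 0.77 and 0.91, and the last 14 0.71 and 0.90. The 21 members on each strand had medians of 0.71 (plus) and 0.85 (minus) at 24 h, and 0.99 on either strand at 48 h. Over the 35 well-counted members, the mean ratio had a Spearman rho of -0.13 with position, -0.12 with transcript length and -0.09 with WT level per length.

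The 4 members with the highest and the 4 with the lowest mean ratio include a pair that share 1 annotated start. CPNE1, a copine that binds membrane phospholipids in the presence of calcium, and RBM12 both begin at 35664956 on the minus strand of chromosome 20 in GENCODE 29. Their RefSeq promoter windows, 250 bases before to 50 after the start that RefSeq gives, which is not the GENCODE start, are the same 300 bases. That window is shown because members on opposite sides of the block median begin there. The windows of POFUT1, which faces PLAGL2 across 89 bases, and of GGT7, the most raised well-counted member, are shown beside it. Capitals mark matches to the GC box GGGCGG and the ETS core CCGGAAG on either strand: 1 ETS core in the shared window, 6 GC boxes in that of POFUT1 (2 of them overlapping), and 2 GC boxes and 1 ETS core in that of GGT7. Each is written in the direction of transcription of the named gene (RefSeq, GRCh38.p14, chr20:35664851-35665150 minus strand, chr20:32207630-32207929 plus strand and chr20:34872807-34873106 minus strand).
CPNE1 and RBM12: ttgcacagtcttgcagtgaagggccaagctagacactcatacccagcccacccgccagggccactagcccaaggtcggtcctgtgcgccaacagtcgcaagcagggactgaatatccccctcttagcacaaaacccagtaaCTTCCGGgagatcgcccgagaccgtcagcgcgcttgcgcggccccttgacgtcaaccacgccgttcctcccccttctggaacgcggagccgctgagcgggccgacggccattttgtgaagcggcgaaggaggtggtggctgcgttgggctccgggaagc
POFUT1: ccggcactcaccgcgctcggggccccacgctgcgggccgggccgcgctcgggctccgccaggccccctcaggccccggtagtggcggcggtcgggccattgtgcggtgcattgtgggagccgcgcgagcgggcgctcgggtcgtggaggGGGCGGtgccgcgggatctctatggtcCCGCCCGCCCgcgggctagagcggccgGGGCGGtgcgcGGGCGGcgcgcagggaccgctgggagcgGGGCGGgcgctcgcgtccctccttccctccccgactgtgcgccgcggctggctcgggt
GGT7: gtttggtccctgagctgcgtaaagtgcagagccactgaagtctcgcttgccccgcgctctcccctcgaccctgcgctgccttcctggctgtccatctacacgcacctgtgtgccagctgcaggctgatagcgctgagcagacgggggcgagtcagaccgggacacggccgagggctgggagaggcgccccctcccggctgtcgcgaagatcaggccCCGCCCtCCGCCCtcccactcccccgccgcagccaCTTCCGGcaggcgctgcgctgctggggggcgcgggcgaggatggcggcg

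CPNE1 had 389 and 266 CPM in ΔOGT-ISS (24 h and 48 h), against 156 and 86.6 CPM in WT, ratios of 2.50 (24 h, 95% counting interval 2.41 to 2.59) and 3.07 (48 h, 2.85 to 3.31). RBM12 had 236 and 184 CPM in ΔOGT-ISS (24 h and 48 h), against 207 and 143 CPM in WT, ratios of 1.14 (24 h, 95% counting interval 1.10 to 1.18) and 1.29 (48 h, 1.20 to 1.38). The ΔOGT-ISS and WT values of CPNE1 did not overlap, while those of RBM12 did, since ΔOGT-ISS at 48 h lay below WT at 24 h. In GENCODE 29 the pair share 575 exonic bases, 15.9% of those of CPNE1 and 8.58% of those of RBM12, and how reads in shared exons were counted is not given in the sources used here. Summed over both genes, the counts were 18106 and 5132 in ΔOGT-ISS (24 h and 48 h), against 8924 and 2424 in WT. The ratio of the sums was 1.72 (95% counting interval 1.68 to 1.77) at 24 h and 1.96 (1.87 to 2.06) at 48 h, or 0.78 and 0.97 on the log2 scale, beside block medians of 0.79 and 0.99. The departures of the pair were thus of opposite sign, and their sum lay close to the block medians. The sum was formed after the values of both genes were seen.

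**Figure D4:**
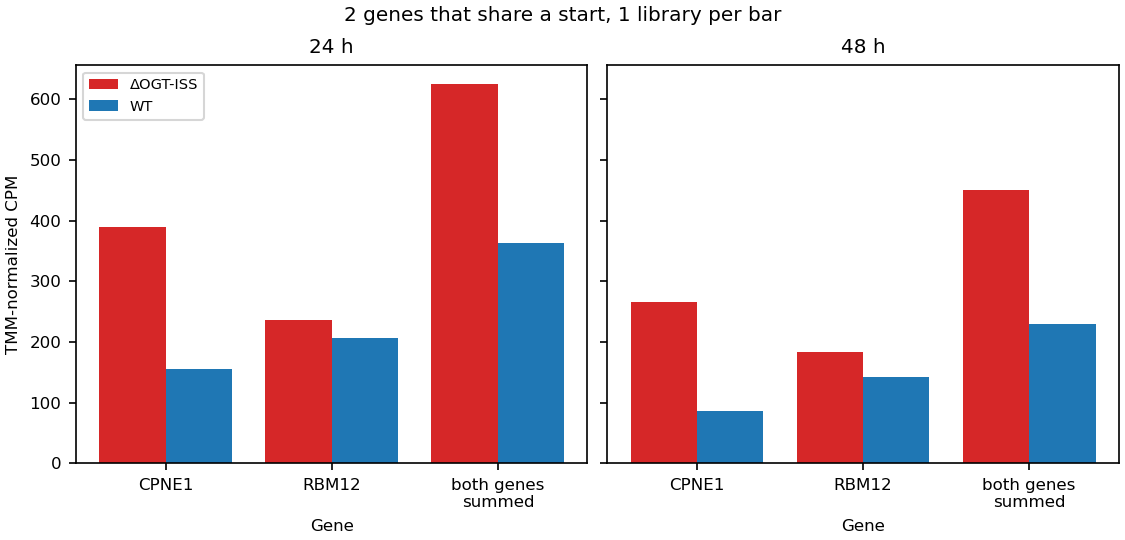
TMM-normalized CPM (y axis, from 0) of CPNE1, RBM12 and both summed, at 24 h (left) and 48 h (right), with 1 library per bar, ΔOGT-ISS in red and WT in blue. CPNE1 read 2.50-fold (24 h) and 3.07-fold (48 h) higher in ΔOGT-ISS, RBM12 1.14-fold and 1.29-fold, and the sum 1.72-fold and 1.96-fold.

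Members that face each other with starts within 1000 bases gave 3 pairs. PLAGL2 and POFUT1 had log2 ratios of 0.88 and 0.81 at 24 h and of 0.94 and 1.38 at 48 h. NFS1 and ROMO1, whose starts overlap on opposite strands, had 0.80 and 0.59 at 24 h and 0.97 and 0.72 at 48 h. GGT7 and ACSS2 had 1.69 and 1.26 at 24 h and 1.65 and 0.89 at 48 h, with few ACSS2 counts. A promoter window was found for 36 of the 42 members, 50 windows in all. The GC box GGGCGG, on either strand, was in 60.0% of them, in 66.5% of windows of protein-coding genes with at least 5 mean CPM and in 45.0% of all 35116 windows. The ETS core CCGGAAG was in 34.0% of the members' windows, against 19.9% and 10.3%. The TATA sequence TATAAA was in 8.0%, against 5.93% and 11.5%. The NRF1 motif GCGCATG was in 4.0%, against 7.56% and 4.43%, and the E-box CACGTG was in 6.0%, against 9.63% and 7.26%. None of these shares was tested, and the median window held 27 CpG, against 26 and 14. Windows of 1 gene, and of genes that face each other, share bases. A match describes letters in a window and no factor's binding. For 23 of the 42 members a gene on the opposite strand overlaps, and whether counting used strand is not given in the sources used here, so reads of such partners may not be told apart.

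The 7 sparse members, with under 50 counts in some library, carried the lowest log2 ratio at 24 h (-1.04, EPB41L1) and the highest at 48 h (3.56, MAP1LC3A), while the highest at 24 h was that of the well-counted GGT7. DYNLRB1, a dynein light chain, had 133 and 31 counts in ΔOGT-ISS (24 h and 48 h), against 46 and 4 counts in WT. Its ratio was 2.46 (24 h, 95% counting interval 1.74 to 3.51) and 7.18 (48 h, 2.54 to 27.99), so that the interval at 48 h is wide. MAP1LC3A, an autophagy protein, had 12 and 13 counts in ΔOGT-ISS (24 h and 48 h), against 10 and 0 counts in WT, and PROCR, the endothelial protein C receptor, had 14 and 2 counts in ΔOGT-ISS (24 h and 48 h), against 3 and 0 counts in WT. Neither passed the filter on low counts, and a count of 0 in WT at 48 h allows up to 0.284 CPM. A further pair had log2 ratios of opposite sign at the times. EPB41L1, a membrane skeleton protein, had 3 and 32 counts in ΔOGT-ISS (24 h and 48 h), against 8 and 12 counts in WT. ZNF341, a transcription factor known to drive STAT3, had 125 and 54 counts in ΔOGT-ISS (24 h and 48 h), against 148 and 20 counts in WT, ratios of 0.717 (24 h, 95% counting interval 0.561 to 0.916) and 2.50 (48 h, 1.47 to 4.41). Its ΔOGT-ISS and WT values overlapped, and it is the only member whose interval lay below 1 at either time.

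The IL-2 time contrast was not used to choose the members, and it was tested. Both 24 h libraries were sequenced more deeply than both 48 h libraries. A difference with IL-2 time thus cannot be told apart from depth or from any other difference between those pairs of libraries. Of the 40 tested members, 9 passed the edgeR test between 24 h and 48 h (22.5%), where 25.9% of all tested genes did, so their share was close to the background. At 24 h 8 members rose, where 15.0% of all genes did, and 1 fell, where 10.9% did. NOL4L rose by 1.92 (SE 0.19, edgeR adjusted p = 0.000871), GGT7 by 1.66 (SE 0.21, edgeR adjusted p = 0.00178), PXMP4 by 1.65 (SE 0.31, edgeR adjusted p = 0.00772) and NECAB3 by 1.32 (SE 0.23, edgeR adjusted p = 0.00568). EIF2S2 changed by -1.60 (SE 0.16, edgeR adjusted p = 0.000871) and thus fell, and PLAGL2 rose by 1.00 (SE 0.16, edgeR adjusted p = 0.00363). These are log2 differences of 24 h over 48 h over both lines. The members' median was 0.29, against 0.07 over all tested genes, and 0.15 within ΔOGT-ISS and 0.36 within WT. The count rests on the model with both terms: without the line term it was 1. It also fell when any 1 library was left out, in fits that lack the line term. Without ΔOGT-ISS at 24 h, or without WT at 48 h, the members still called were lower at 24 h, not higher.

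Some block genes encode single subunits of complexes whose other subunits lie elsewhere in the genome. Partners and close relatives of 20 members, 90 genes in all, were listed by function and not by value, and the line difference was tested in the 89 that passed the filter. Their median fitted log2 difference was -0.01, beside 0.02 for all 17492 tested genes and 0.85 for the tested block members. By edgeR, 1 partner rose and 0 fell, where 0.463% of all genes were called in either direction, and 9 (10.1%) passed an unadjusted p of 0.05, beside 9.08% of all tested genes. The partner that rose was RUNX1T1, a corepressor of the same family as CBFA2T2, with 17.01 and 44.7 CPM in ΔOGT-ISS (24 h and 48 h), against 3.66 and 5.01 CPM in WT and a log2 difference of 2.67 (SE 0.29, edgeR adjusted p = 0.0142). The call was lost in each fit without 1 library, in the fit without the time term and in limma on FPKM, with 0 partners called in each and between 1 and 7 at an unadjusted p of 0.05. DESeq2 called 1.

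Among the named partners, values stood near 0 for some complexes and apart from it for others. Beside EIF2S2, the other eIF2 subunits EIF2S1 and EIF2S3 had log2 differences of -0.01 (SE 0.16, edgeR adjusted p = 0.996) and -0.18 (SE 0.20, edgeR adjusted p = 0.918). Beside KIF3B, its motor partner KIF3A had 0.07 (SE 0.16, edgeR adjusted p = 0.964), and the sparse KIF3C -1.04 (SE 0.86, edgeR adjusted p = 0.868). Neither complex had a partner past the test. Beside PIGU, PIGK had 0.24 (SE 0.16, edgeR adjusted p = 0.803), and beside CHMP4B, CHMP2B had 0.28 (SE 0.19, edgeR adjusted p = 0.802) and CHMP4A 0.25 (SE 0.57, edgeR adjusted p = 0.964). Beside GSS, the enzymes of the preceding step, GCLC and GCLM, lay on the lower side, at -0.34 (SE 0.16, edgeR adjusted p = 0.609) and -0.34 (SE 0.17, edgeR adjusted p = 0.658), and did not pass. Beside PHF20 and ASXL1, whose complexes both contain OGT, OGT had -0.19 (SE 0.16, edgeR adjusted p = 0.862). COMMD3, a relative of COMMD7, had -1.15 (SE 0.30, edgeR adjusted p = 0.191), and PAGR1, a subunit of the NCOA6 complex, -0.92 (SE 0.28, edgeR adjusted p = 0.294), neither past the threshold. MAPRE2, a relative of MAPRE1, had 0.56 (SE 0.17, edgeR adjusted p = 0.295), and ERGIC1, a relative of ERGIC3, 0.49 (SE 0.16, edgeR adjusted p = 0.343). None of the remaining partners named by the rule passed either, with edgeR adjusted p-values of 0.237 to 0.998. Among relatives of block proteins, COMMD4 had a log2 difference of -0.59, MAPRE3 0.70, ERGIC2 0.11, EDEM1 -0.26, EDEM3 0.0049, and the autophagy genes GABARAP and GABARAPL1 -1.16 and -0.30. Among chromatin partners, KAT8 had 0.21, MBD6 0.28 and WDR5 -0.29. Among partners in mitochondria and metabolism, LYRM4 had 0.17, UQCC2 0.09, UQCC3 -0.24, MAT2A 0.13 and MAT2B -0.37. The dynein genes DYNC1H1 and DYNC1LI1 had -0.17 and -0.24, the ITCH adaptors NDFIP1 and NDFIP2 -0.38 and -0.03, GPAA1 0.23 and PRPF8 -0.06.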

How the data were processed

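RNA-seq data of 4 NK-92 libraries were used, 1 per line (ΔOGT-ISS, WT) and IL-2 time (24 h, 48 h). The deposited gene counts were made by the authors with HISAT2 2.2.0, SAMtools 1.15.1 and featureCounts 2.0.1 on hg38, per the submitters' processing notes, and the strand setting is not given in the sources used here. The FPKM values were deposited by the authors beside a transcript length, and equal the counts per length and per total of the listed genes.

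Counts were tested with edgeR 4.0.16 (quasi-likelihood, TMM, filterByExpr with a minimum count of 10, Benjamini-Hochberg adjustment over 17492 genes, threshold 0.05) with line and time as additive terms, which leaves 1 residual degree of freedom. On simulated counts for these libraries, 100 of 100 genes changed by a log2 of 2 were called between the lines, along with 7 false calls. No change under a log2 of 2 was simulated. The simulation thus does not show how often smaller changes, such as the fitted block median of 0.85, would be called. Partners not past the test may therefore still differ by such smaller amounts. Ratios within a time carry exact 95% binomial intervals, which cover counting error only. DESeq2 1.42.0 and limma 3.58.1 were alternatives. Positions are from GENCODE 29 (GRCh38) and promoter windows from RefSeq.

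Named with all values are the 4 highest and 4 lowest members by mean ratio, those off the block median at both times, up to 6 past the time test, paired starts, the ends and their neighbours, and up to 2 partners per complex, of which 1 is not reported here. The members, lists and tests were chosen with earlier results of these data known.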

Additional observations from a re-analysis of the deposited data

Results flagged for a closer look

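The line ratio of 1 block member and 2 partners lay on opposite sides of 1 at the IL-2 times, with counting intervals that leave out 1 at both. How far the ratios differ with time was not tested, since each ratio rests on 1 library per line. ZNF341, a block member, had a ratio of ΔOGT-ISS to WT of 0.717 at 24 h and 2.5 at 48 h, from 125 and 54 counts in ΔOGT-ISS (24 h and 48 h), against 148 and 20 counts in WT. Among partners, the eIF2 subunits had 1.11 (24 h) and 0.707 (48 h) for EIF2S3, and 1.05 (24 h) and 0.938 (48 h) for EIF2S1.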

How the results depend on the processing

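The block's median line ratio kept its direction, and moved by less than 1 SD, under the 7 alternatives at each time. Its SD over members was 0.286 (24 h) and 0.324 (48 h) with at least 50 counts, and 0.859 (48 h) with a prior count of 0.5. Leaving out 1 library, in fits with the tested term alone that mix line with time, gave a fitted block median of 0.69 to 1.10, beside 0.85. The 81 genes called between lines became 154 with DESeq2 size factors, 546 without the filter, 303 with DESeq2, 0 with the line term alone (242 at an unadjusted p of 0.05), 0 with limma on FPKM with either pseudocount (1618 with 1 and 1543 with 0.1, unadjusted) and 0 to 16 without 1 library (16 without ΔOGT-ISS at 24 h). Genes called between times, 4535, were 1098 to 3657 without 1 library. Members called between times were 1 with the time term alone and 1 to 4 without 1 library, beside 9. Partners called were 3 without the filter, 0 with the line term alone, 0 with limma at either pseudocount and 0 without 1 library, beside 1. The cause of these moves was not tested. The fits with the tested term alone differ from the reported fit only in the dropped term. Fits without 1 library also drop that term and filter the genes anew, so these changes cannot be told apart. IL-2 time, which pairs the lines, is a term of the reported fit, so that fit is the paired one, and the fits with the tested term alone leave the pairing out. Ratios within a time have no replicate, so no library can be left out of them. Ratios of members under 50 counts are limited by depth.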
